A study of Homo sapiens with 14 samples.

Results

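Cells of SK-N-BE2, a long-established line from a neuroblastoma in which MYCN is amplified, were studied by RNA sequencing, and the libraries labelled TET2 knockout 2 were compared with the wild-type (WT) libraries. The 4 libraries of this comparison, 2 per group, were chosen by their titles out of the 14 RNA libraries of the study. Both groups had the treatment label none and belonged to labelled batch 2, and they differed in the genotype label, TET2 KO for one and WT for the other. Batch 2 also held 2 libraries each of labelled TET2 knockouts 1 and 3, which entered the same fit and are given beside the results. The labels do not state how TET2 was disrupted, whether a knockout number stands for 1 clone or for pooled cells, or whether replicates were separate cultures. The p-values below therefore measure the spread between these libraries, which may be technical.

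TET2 is an enzyme that oxidises 5-methylcytosine in DNA to 5-hydroxymethylcytosine, an early step in the removal of DNA methylation at enhancers and promoters. MYCN is the transcription factor whose amplification marks high-risk neuroblastoma, where it drives ribosome production and growth. Neuroblastoma cells can resemble noradrenaline-producing sympathetic neurons (the adrenergic state) or matrix-producing neural crest cells (the mesenchymal state), and lines hold these features in different proportions.

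The libraries of batch 2 held 52095024 to 59263320 counts, and 14061 of the 19923 genes in the deposited tables passed the filter on low counts. Between 77.3% and 80.5% of counts from 1 to 10 were even, so both reads of a pair had usually been counted. Levels are given as CPM, the counts of a gene scaled to a common library size, changes as log2 fold changes with standard errors (SE), and a gene is said to have risen or fallen where edgeR's quasi-likelihood test gave a Benjamini-Hochberg adjusted p under 0.05. TET2 mRNA was higher, not lower, in the libraries labelled knockout 2, at 87.4 and 91.1 CPM against 70.8 and 64.8 CPM in WT. Gene counts thus did not show the loss of TET2, and every direction below rests on the labels. Of 14 neuroblastoma marker genes 13 were tested and present, and of these 4 rose and 5 fell. The shares were 30.8% and 38.5%, against 12.0% and 14.3% of all genes tested. Among those not called were PHOX2A (393 and 387 CPM in WT, 395 and 393 CPM in knockout 2) and HAND2 (584 and 601 CPM, 566 and 589 CPM). The list summed to 9111 and 9324 CPM in WT and 7114 and 7227 CPM in knockout 2.

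TET2 knockout 2 differed from WT in 3698 of 14061 genes (26.3% of genes tested), of which 1691 (12.0%) were higher and 2007 (14.3%) lower. Changes were mostly modest: their median size was 0.27 on the log2 scale, and 2985 of the called genes (80.7%) changed by under 1.5-fold. A change of at least 2-fold was called for 311 genes (2.21%), 124 higher (0.882%) and 187 lower (1.33%). DESeq2 called 3138 genes (22.3%), and leaving out TET2KO_2 replicate 1 lowered the edgeR count to 2406. The CPM of both knockout 2 libraries lay outside those of both WT libraries for 60.7% of genes. In the same fit, labelled knockouts 1 and 3 differed from the same WT libraries in 2462 (17.5%) and 2653 (18.9%) genes. Knockout 2 was therefore also tested directly against the mean of knockouts 1 and 3, a contrast without WT, which called 4950 genes (35.2%), 2502 higher (17.8%) and 2448 lower (17.4%). Among the genes higher than WT, 1129 (8.03% of genes tested) were also higher than the mean of the other knockouts and 26 (0.185%) were lower. Among those lower than WT, 1293 (9.2%) were also lower than that mean and 109 (0.775%) were higher. Both contrasts use the same 2 knockout 2 libraries, which favours the same sign in both, so these counts are no independent support. A call against the mean does not place knockout 2 beyond both other knockouts. Without strand in the counting, reads of genes that overlap on opposite strands cannot be told apart, which touches CCND1, FTH1, GEN1, HSP90AA1, NOP16, PHOX2A, RARB, SMC6, SREBF1, TGFB1, TM7SF2 and ZNF473 below, and ERBB3, MXD1 and ZNF551 share exons with a gene on their own strand.

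**Figure D1:**
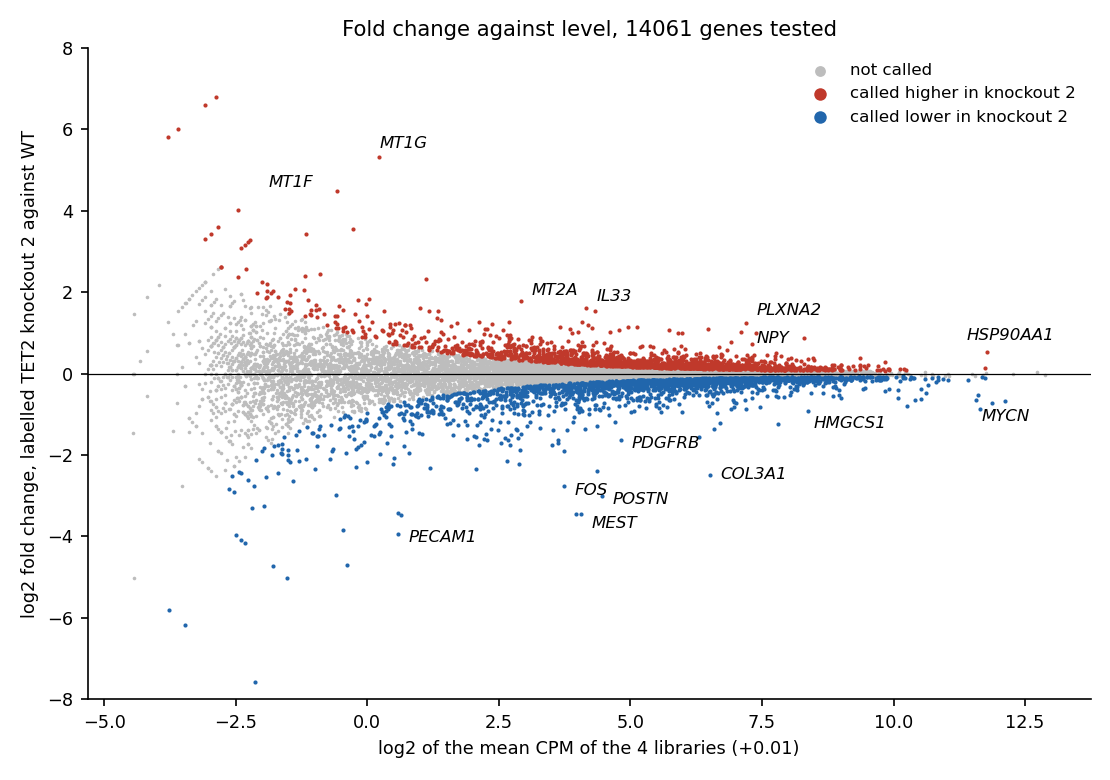
Each point is 1 of 14061 genes, with the log2 of its mean CPM over the 4 libraries on the x axis and the log2 fold change of labelled TET2 knockout 2 against WT on the y axis. Red points were called higher (1691 genes) and blue points lower (2007 genes); MT1G and MT1F stand high among the rises, PECAM1, MEST and POSTN low among the falls, and MYCN, HMGCS1 and HSP90AA1 are abundant genes with smaller changes.

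The gene lists fell into 3 broad patterns. Of all genes tested 12.0% were higher and 14.3% lower, and the counts of list members below are to be read beside these shares. Lists in which nearly every called member was lower than WT were sterol and fatty acid synthesis, mitochondrially encoded genes, collagens and matrix, YAP targets, immediate early genes and ribosomal proteins. Lists whose called members were mostly higher were metallothioneins, mitosis, DNA replication, Polycomb and heat shock genes. Adrenergic transcription factors, neuronal genes and the TGF-beta pathway held similar numbers of rises and falls.

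**Figure D2:**
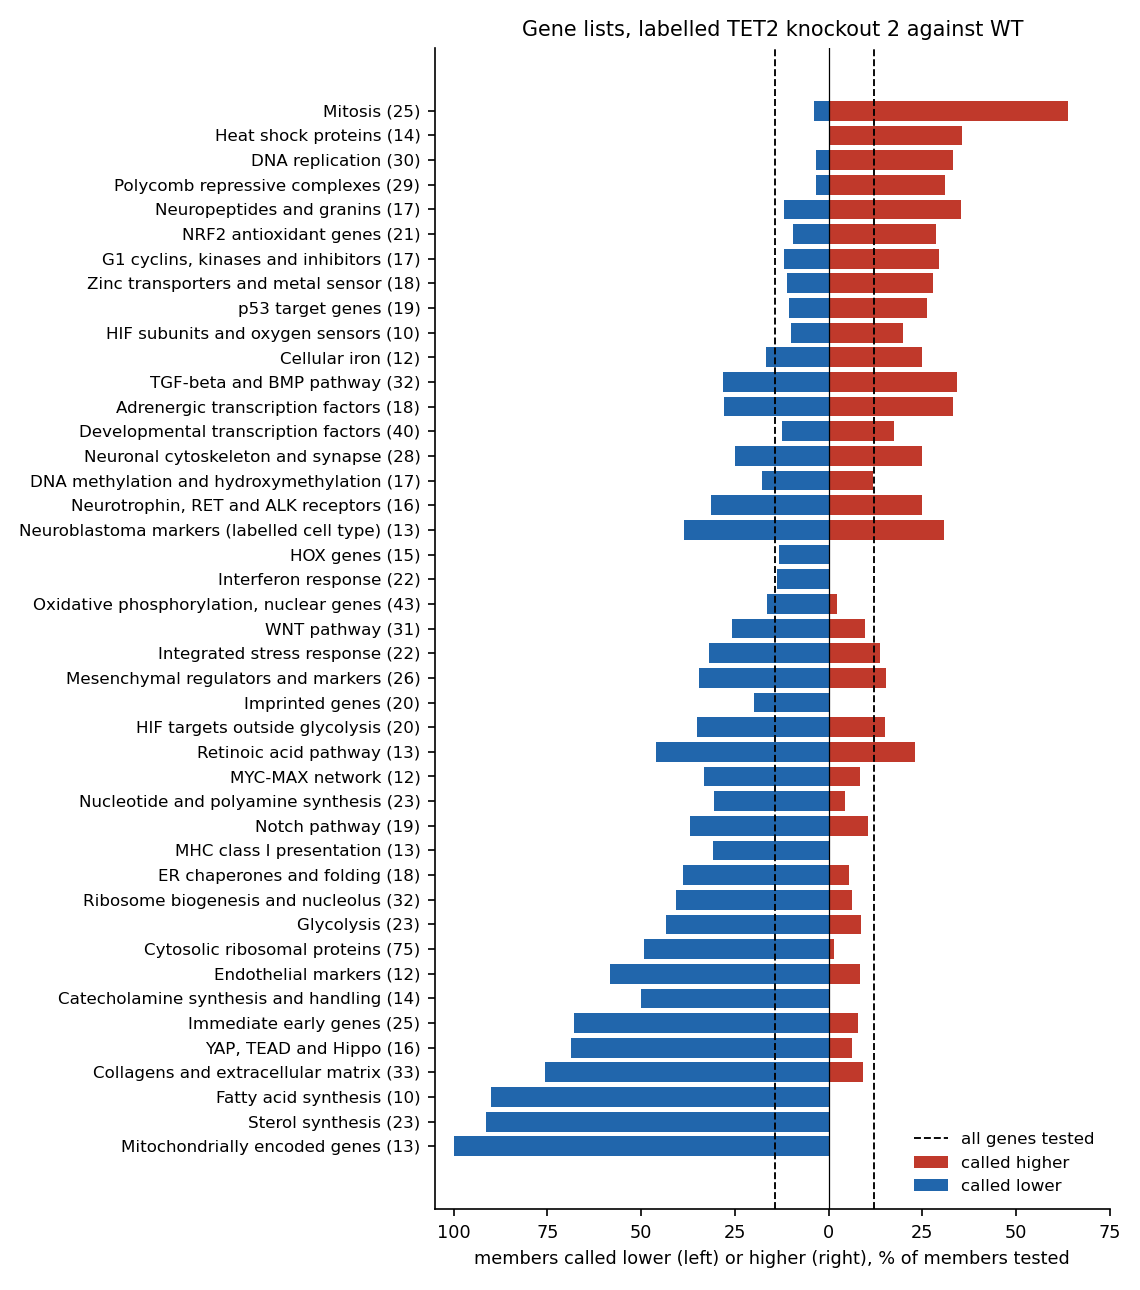
Bars give, for each gene list with at least 10 members tested (number in brackets), the percentage of members called higher (red, to the right) and lower (blue, to the left) in labelled TET2 knockout 2 against WT, and dashed lines give the same for all genes tested (12.0% and 14.3%). Mitochondrially encoded genes, sterol synthesis and fatty acid synthesis reach 90.0% or more called lower, and mitosis has the highest share called higher.

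Metallothioneins were among the largest rises in TET2 knockout 2. Metallothioneins are small cysteine-rich proteins that bind zinc, copper and cadmium, and their genes are induced through metal response elements bound by the zinc-sensing factor MTF1. Of the family's genes in the tables, MT2A, MT1X, MT1G and MT1F passed the filter and rose, MT1G and MT1F having passed it only through the knockout 2 libraries, so that their direction was fixed by the filter. The other 7 had at most 5 counts in any WT or knockout 2 library. The 250 bases before the annotated start of the 2 most abundant members are printed here (RefSeq, GRCh38.p14, plus strand of chromosome 16, chr16:56608334-56608583 for MT2A and chr16:56682220-56682469 for MT1X) because both rose. Capitals mark matches to the core of the metal response element, TGCGCNC or TGCACNC, on either strand, and a match is a description of the letters, not a bound site.
MT2A: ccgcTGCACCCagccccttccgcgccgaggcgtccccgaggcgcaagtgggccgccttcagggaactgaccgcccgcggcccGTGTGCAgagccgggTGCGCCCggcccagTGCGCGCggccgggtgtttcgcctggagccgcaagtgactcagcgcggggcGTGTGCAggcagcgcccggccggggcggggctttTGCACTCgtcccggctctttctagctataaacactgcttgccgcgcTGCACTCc
MT1X: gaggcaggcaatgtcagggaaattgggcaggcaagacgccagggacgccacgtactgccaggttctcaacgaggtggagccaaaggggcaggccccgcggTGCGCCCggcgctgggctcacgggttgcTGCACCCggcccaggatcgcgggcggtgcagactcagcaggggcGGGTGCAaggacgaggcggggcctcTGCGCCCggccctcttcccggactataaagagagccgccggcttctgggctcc
The MT2A window held 7 matches and the MT1X window 4. The RefSeq table held 3 more promoters of the family, those of MT1B, MT1H and MT4, whose genes were below the filter. All 5 held at least 1 match, against 24.3% of 22114 promoters of the same length and 34.3% of the 7879 of genes tested. The share was 32.2% for genes that rose and 34.2% for genes that fell, so neither stood above that of genes tested.

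MT2A (chromosome 16, 56608584 to 56609497, plus strand) was measured at 3.89 and 2.92 CPM in the WT libraries and 11.9 and 11.7 CPM in the knockout 2 libraries (log2 fold change 1.79, SE 0.14, adjusted p 1.80e-26). Knockouts 1 and 3 stayed at the WT level or below it, at 2.93 and 3.00 CPM and 2.43 and 2.34 CPM. MT1X was at 2.18 and 1.68 CPM in WT and 4.99 and 4.20 CPM in knockout 2 (log2 fold change 1.25, SE 0.20, adjusted p 4.22e-08). MT1G had 2 and 4 counts in WT and 136 and 116 in knockout 2, which is 43.0 times as many (95% interval from counting error 14.4 to 211, each count divided by 2), and MT1F had 6 and 0 against 78 and 62, or 23.9 times (7.85 to 119). Reads of these near-identical genes may be shared among paralogs by the authors' counting, so the split between members is uncertain. MT2A and MT1X also lay above the mean of knockouts 1 and 3 in the direct test (log2 differences 2.15 and 1.10).

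Other zinc and redox genes moved by less. SLC30A1, the plasma membrane zinc exporter and itself a target of MTF1, rose from 40.4 and 39.7 CPM to 60.7 and 59.1 CPM (log2 fold change 0.58, SE 0.058, adjusted p 4.79e-18), whereas the zinc importer SLC39A10 fell from 153 and 139.9 CPM to 117 and 116 CPM (log2 fold change -0.33, SE 0.042, adjusted p 7.95e-12). In all, 5 of 18 zinc transporter and sensor genes rose and 2 fell, and only 1 to 3 of the rises were called when any 1 of the 4 libraries was left out. Of 21 NRF2 antioxidant genes 6 rose and 2 fell (28.6% and 9.52%, against 12.0% and 14.3% of all genes tested), with 4 to 5 higher and 1 to 2 lower when any 1 library was left out. HMOX1, which degrades heme, rose by 0.68 (SE 0.13, adjusted p 7.00e-06), the cystine importer SLC7A11 by 0.53 (SE 0.100, adjusted p 4.02e-06) and GCLM, a subunit of the enzyme that starts glutathione synthesis, by 0.33 (SE 0.061, adjusted p 3.03e-06) on the log2 scale. FTH1, the ferritin heavy chain, rose from 97.8 and 83.9 CPM to 118 and 121 CPM (log2 fold change 0.40, SE 0.046, adjusted p 2.62e-13).

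Sterol synthesis was lower at nearly every step. Of 23 genes of the list tested, 21 fell and 0 rose, with a median log2 fold change of -0.45 against 0.00070 for all genes tested, and DESeq2 called the same numbers. The other 2, PMVK (0.10, adjusted p 0.239) and TM7SF2 (0.062, adjusted p 0.626), were not called. Between 20 and 21 members were lower when any 1 of the 4 libraries was left out. In knockouts 1 and 3 the same list had medians of -0.019 and 0.014, and 20 of the 23 genes were lower in knockout 2 than in their mean, with 0 higher.

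HMGCS1 (chromosome 5, 43287470 to 43313512, minus strand), which makes the precursor of mevalonate, was at 437 and 438 CPM in WT and 238 and 222 CPM in knockout 2, or 52.5% of the WT mean (log2 fold change -0.93, SE 0.034, adjusted p 7.97e-70). FDFT1, which commits farnesyl units to sterols, went from 220.4 and 231 CPM to 128 and 127 CPM (log2 fold change -0.83, SE 0.039, adjusted p 3.10e-53). DHCR7, the enzyme of the last step to cholesterol, was at 162 and 159 CPM in WT and 89.5 and 91.4 CPM in knockout 2 (log2 fold change -0.83, SE 0.042, adjusted p 2.20e-47). In all 3 genes the 2 knockout 2 libraries lay close together and well under the 6 libraries of the other groups. INSIG1, a sterol-responsive brake on the SREBP transcription factors, fell by 0.78 (SE 0.058, adjusted p 1.39e-28) on the log2 scale. SREBF2, which encodes the SREBP that governs sterol genes, fell from 359.6 and 356 CPM to 311 and 318 CPM (log2 fold change -0.19, SE 0.034, adjusted p 1.90e-06).

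**Figure D3:**
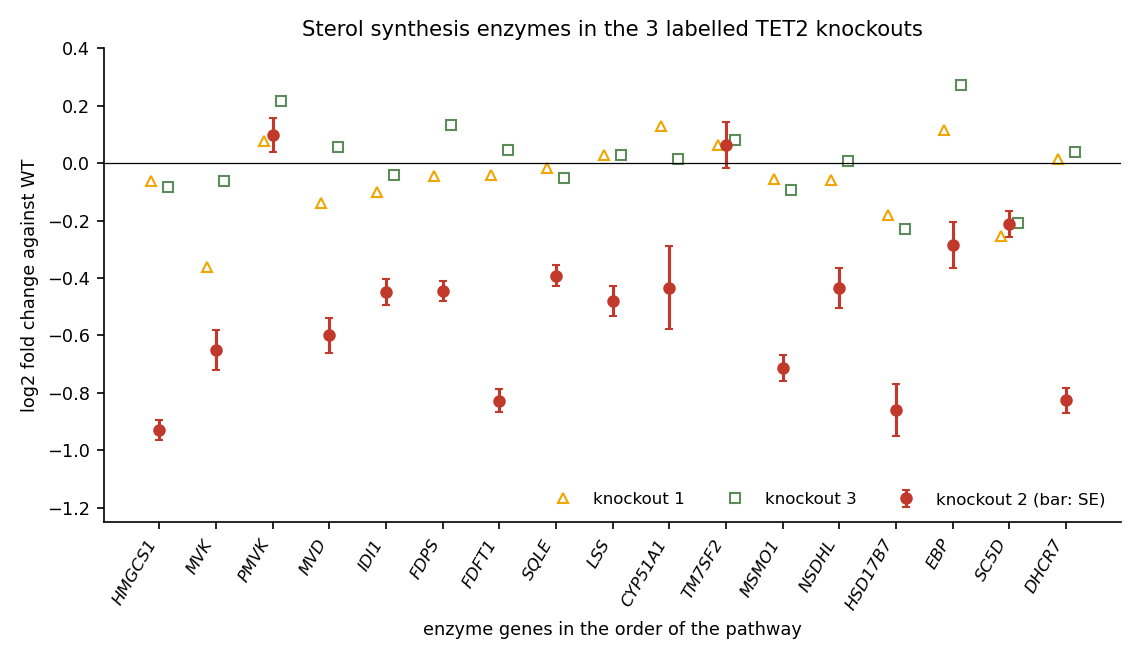
Sterol synthesis enzymes, 17 of them, stand in pathway order on the x axis, from HMGCS1 to DHCR7, with their log2 fold change against WT on the y axis; filled circles with SE bars are labelled knockout 2, triangles knockout 1 and squares knockout 3. The knockout 2 values lie under those of the other knockouts for most steps, from -0.93 for HMGCS1 to 0.10 for PMVK.

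Fatty acid synthesis genes shared this direction. Of 10 tested, 9 fell and 0 rose (median -0.39), and all 10 were lower in knockout 2 than in the mean of knockouts 1 and 3. SCD, the desaturase that makes oleate, was at 1325 and 1293 CPM in WT and 875 and 853 CPM in knockout 2 (log2 fold change -0.60, SE 0.029, adjusted p 1.12e-51). ELOVL6, which extends palmitate, fell from 121 and 123 CPM to 79.3 and 78.5 CPM (log2 fold change -0.63, SE 0.045, adjusted p 1.21e-29), and FASN, the fatty acid synthase, from 1679 and 1645 CPM to 1239 and 1309.9 CPM (log2 fold change -0.38, SE 0.028, adjusted p 1.79e-28). SREBF1, the SREBP gene most tied to fatty acid synthesis, went from 114 and 112 CPM to 79.2 and 79.9 CPM (log2 fold change -0.51, SE 0.046, adjusted p 9.41e-21). ELOVL5 was not called (-0.058, adjusted p 0.244).

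MYCN (chromosome 2, 15940550 to 15947007, plus strand) was at 4599.8 and 4678 CPM in WT and 2815 and 2837 CPM in knockout 2, which is 60.9% of the WT mean, and at 4548 and 4594 CPM and 4699.9 and 4715 CPM in knockouts 1 and 3. Both knockout 2 libraries thus lay far under the other 6. Against WT the change was called (log2 fold change -0.72, SE 0.026, adjusted p 9.21e-71), as was the log2 difference of -0.71 (adjusted p 1.09e-79) from the mean of knockouts 1 and 3. Genes near MYCN, some of which are often amplified with it in neuroblastoma, were lower than WT by less. DDX1, an RNA helicase gene and the nearest tested neighbour, went from 517 and 531 CPM to 483 and 468 CPM (log2 fold change -0.14, SE 0.032, adjusted p 1.34e-04), and NBAS from 112 and 114 CPM to 103 and 98.7 CPM (log2 fold change -0.16, SE 0.044, adjusted p 0.00246). Neither was called against the mean of knockouts 1 and 3 (log2 difference -0.035, adjusted p 0.35, and -0.0048, adjusted p 0.943), and NBAS was not called against WT without TET2KO_2 replicate 2 (adjusted p 0.0901). Of the other genes tested near MYCN, VSNL1 also fell (-0.33, adjusted p 0.00462), although not without WT replicate 2 (adjusted p 0.127) or without TET2KO_2 replicate 1 (0.0644), while LRATD1, FAM49A (-0.29, adjusted p 0.132), RAD51AP2, SMC6, GEN1 and KCNS3 were not called. KCNS3 (0.78) was called higher without WT replicate 1 (adjusted p 0.0141) and GEN1 (0.086) without TET2KO_2 replicate 2 (0.0382). Medians were also taken over every run of 20 neighbouring tested genes, moved 1 gene at a time along each chromosome. The most extreme runs without overlap were kept, so their edges were set by the values. Among the 5 lowest was the run from MYCN to KLHL29 (15940550 to 23708611 on chromosome 2). It had a median log2 fold change of -0.20, with 6 genes lower and 1 higher.

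The MYC-MAX network regulates growth genes through dimers of MAX with MYC proteins or with the antagonists of the MXD family. Of 12 members tested, 4 fell and 1 rose (33.3% and 8.33%, against 14.3% and 12.0% of all genes tested). MXD1, an antagonist, rose from 16.7 and 16.2 CPM to 22.3 and 24.3 CPM (log2 fold change 0.50, SE 0.083, adjusted p 2.06e-07), and MXI1, another, fell from 61.5 and 63.5 CPM to 48.5 and 49.9 CPM (log2 fold change -0.34, SE 0.055, adjusted p 3.98e-08). Ribosome biogenesis genes, known MYCN targets, were more often lower: 13 of 32 fell and 2 rose (median -0.09), with 10 to 15 lower when any 1 library was left out. In the same list 6 genes fell and 1 rose in knockout 1, and 4 fell and 0 rose in knockout 3. The falls were 18.8% and 12.5%, against 9.72% and 9.96% of all genes tested in these knockouts. A link of these falls to the level of MYCN was not tested. In knockout 2 NOP16 fell by 0.43 (SE 0.056, adjusted p 1.71e-11) and NCL, which encodes nucleolin, by 0.20 (SE 0.028, adjusted p 6.72e-10). RRN3, an RNA polymerase I initiation factor, rose by 0.22 (SE 0.048, adjusted p 6.92e-05).

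Cytosolic ribosomal protein genes shifted by a small amount in 1 direction. Of 75 tested, 37 fell and 1 rose, with a median of -0.08, and 70 of 75 had a value under 0. The count rested on single libraries: 13 were lower without WT replicate 2 and 14 without TET2KO_2 replicate 1, against 40 without WT replicate 1. Of the same genes 18 fell and 4 rose in knockout 1, and 0 fell and 26 rose in knockout 3. Ribosomal protein genes took 4.57% and 4.63% of counts in the knockout 2 libraries and 4.65% and 4.78% in WT. RPS10 had the largest fall (-1.49), but it shares exons with RPS10-NUDT3 and its level is uncertain. Nucleotide and polyamine synthesis genes held 7 falls and 1 rise among 23. CAD, which starts pyrimidine synthesis, fell by 0.20 (SE 0.034, adjusted p 3.54e-07), and ODC1, the first enzyme of polyamine synthesis, rose by 0.13 (SE 0.031, adjusted p 3.13e-04). In this list 4 falls were left without TET2KO_2 replicate 2.

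Immediate early genes, which are switched on within minutes by growth factor and ERK signalling, were lower together with the feedback genes of that pathway. Of 25 tested, 17 fell and 2 rose, with a median of -0.33, and 14 to 16 were lower when any 1 library was left out. FOS (chromosome 14, 75278826 to 75282230, plus strand), the best known of them, was at 23.0 and 23.6 CPM in WT and 3.34 and 3.47 CPM in knockout 2 (log2 fold change -2.77, SE 0.12, adjusted p 3.98e-59), with 19.1 and 19.6 CPM and 20.9 and 22.1 CPM in knockouts 1 and 3. Its relative FOSB fell from 2.27 and 2.27 CPM to 0.538 and 0.543 CPM (log2 fold change -2.07, SE 0.32, adjusted p 1.80e-08). EGR1, a zinc-finger factor of the same early wave, was at 108 and 109 CPM in WT and 67.7 and 66.5 CPM in knockout 2 (log2 fold change -0.69, SE 0.047, adjusted p 1.86e-32). For all 3 genes both knockout 2 libraries were under every other library of the batch.

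DUSP6, a phosphatase that inactivates ERK, fell from 176 and 177 CPM to 114 and 110.4 CPM (log2 fold change -0.65, SE 0.040, adjusted p 1.84e-37), and SPRY4, an inhibitor of receptor signalling, from 188 and 185 CPM to 151 and 147 CPM (log2 fold change -0.33, SE 0.039, adjusted p 1.39e-13). IL17RD, a membrane inhibitor of FGF signalling that was not on the list, was one of the genes that differed most from the other knockouts: it was at 19.3 and 18.5 CPM in WT, 5.13 and 6.55 CPM in knockout 2, and 16.4 and 15.7 CPM and 21.7 and 22.7 CPM in knockouts 1 and 3. Members with the opposite sign were DUSP4, another ERK phosphatase, which rose from 187 and 190.0 CPM to 242 and 242 CPM (log2 fold change 0.36, SE 0.037, adjusted p 1.27e-17), and EGR3 (1.22, adjusted p 0.0217), a sparse gene at 0.437 and 0.357 CPM in WT and 0.789 and 1.07 CPM in knockout 2 whose call was lost without WT replicate 1 (adjusted p 0.0653), WT replicate 2 (0.150) or TET2KO_2 replicate 2 (0.213). The direct test against knockouts 1 and 3 called 16 of the 25 genes lower and 3 higher.

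**Figure D4:**
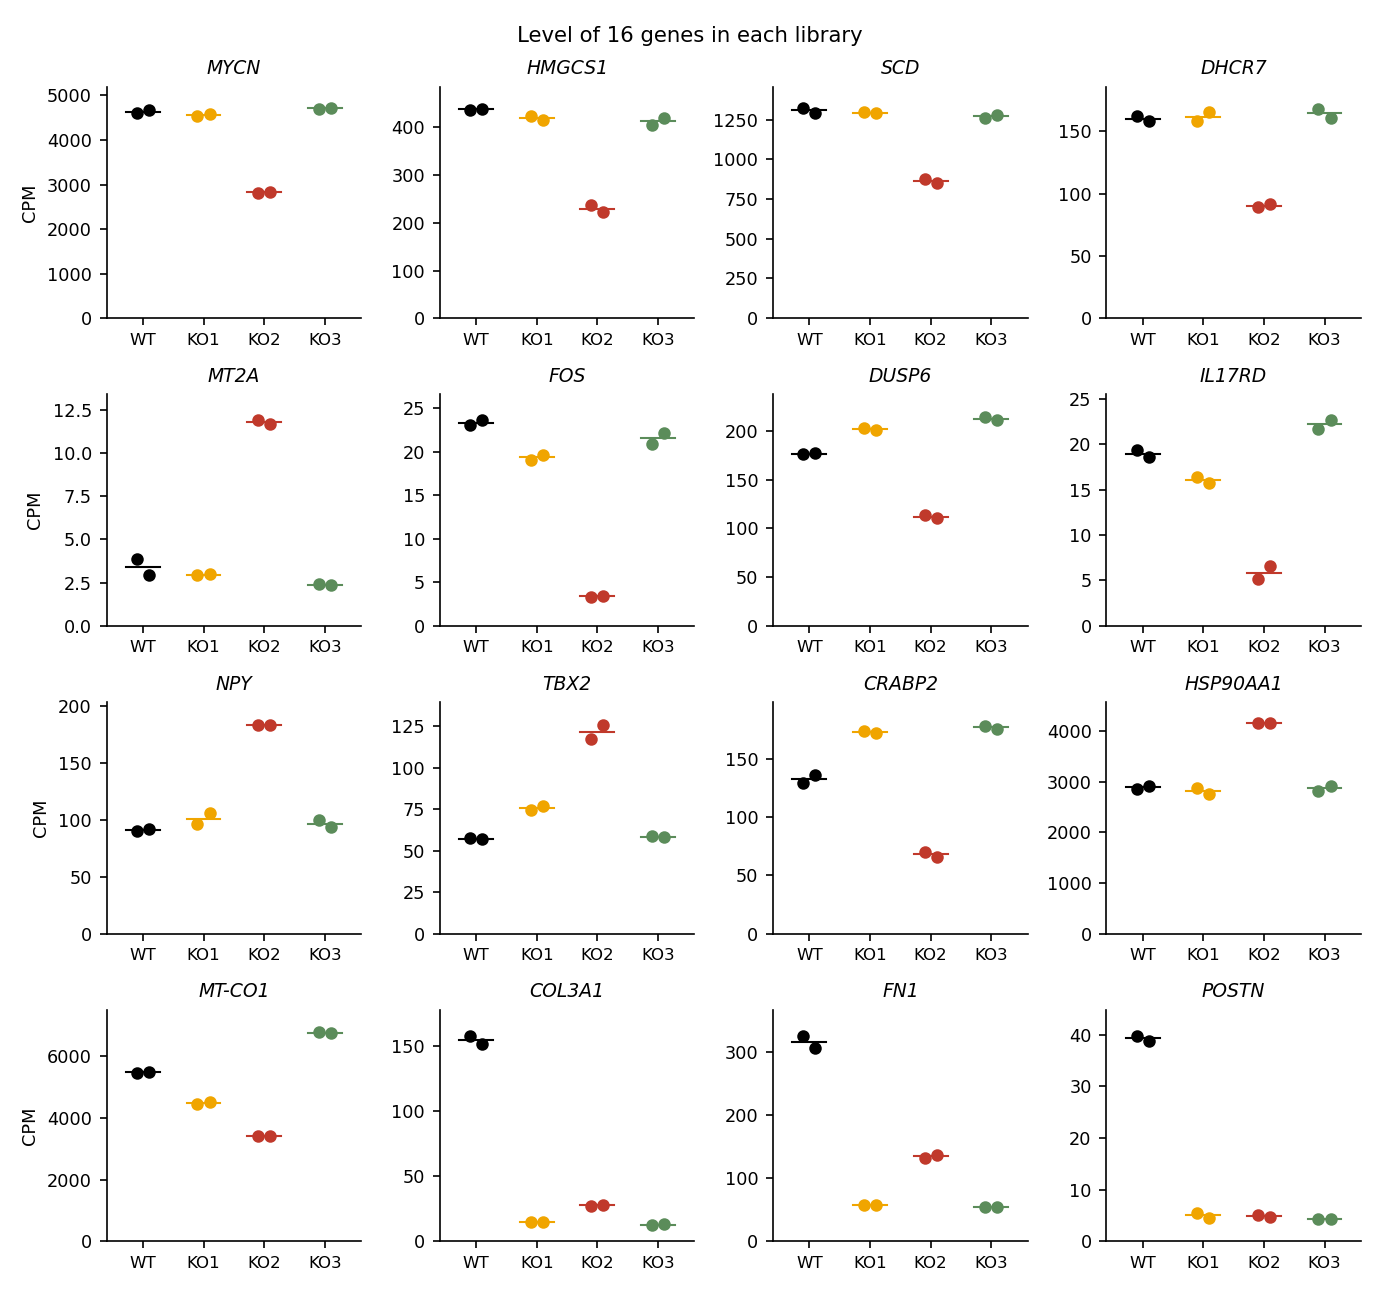
CPM of 16 genes in each of the 8 libraries of batch 2, by group on the x axis (WT and labelled TET2 knockouts 1, 2 and 3); points are libraries, lines are means of 2, and every y axis starts at 0. In the first 3 rows the knockout 2 libraries lie beyond the other 6 for all 12 genes, while POSTN in the last row is low in all knockouts and FN1 and COL3A1 are lower in knockouts 1 and 3 than in knockout 2.

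Adrenergic transcription factors did not move as 1 group: 6 of 18 rose and 5 fell (3 without WT replicate 1 or TET2KO_2 replicate 1). TBX2, a T-box factor of the neuroblastoma regulatory circuit, was at 57.4 and 57.0 CPM in WT and 117 and 126 CPM in knockout 2 (log2 fold change 1.09, SE 0.048, adjusted p 2.48e-56). HAND1 rose from 79.9 and 80.1 CPM to 126 and 126 CPM (log2 fold change 0.66, SE 0.045, adjusted p 9.81e-32) and GATA3 from 188 and 181 CPM to 249 and 245 CPM (log2 fold change 0.42, SE 0.037, adjusted p 4.75e-22). In contrast TFAP2B, a factor of sympathetic differentiation, fell from 312 and 308 CPM to 213 and 219 CPM (log2 fold change -0.52, SE 0.035, adjusted p 6.19e-33). HAND2 (-0.037, adjusted p 0.419) and PHOX2A (0.014, adjusted p 0.797) were not called.

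Genes of catecholamine synthesis and handling were lower where they were called, 7 of 14, with 0 higher. This count was 3 without WT replicate 2 and 4 without either knockout 2 library. TH, the rate-limiting enzyme of catecholamine synthesis, went from 508 and 532 CPM to 420.1 and 425 CPM (log2 fold change -0.30, SE 0.033, adjusted p 5.32e-15), and CYB561, which carries electrons into secretory vesicles, from 773 and 769 CPM to 596 and 588 CPM (log2 fold change -0.38, SE 0.030, adjusted p 1.00e-25). DBH, which makes noradrenaline, was not called (-0.064, adjusted p 0.186). Among 17 neuropeptide and granin genes 6 rose and 2 fell (4 and 1 without WT replicate 2 or TET2KO_2 replicate 1). NPY, a peptide co-released with noradrenaline, doubled from 89.8 and 91.7 CPM to 183 and 183 CPM (log2 fold change 1.01, SE 0.043, adjusted p 2.00e-59), with 96.1 and 106 CPM and 99.5 and 93.8 CPM in knockouts 1 and 3. The granin SCG2 rose from 815 and 831 CPM to 1001 and 1009 CPM (log2 fold change 0.29, SE 0.029, adjusted p 2.20e-17) and the granin CHGB fell from 1079.7 and 1112 CPM to 834 and 857 CPM (log2 fold change -0.37, SE 0.029, adjusted p 2.66e-26).

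Neuronal cytoskeleton and synapse genes held 7 rises and 7 falls among 28 (25% each, against 12.0% and 14.3% of all genes tested). DPYSL3, a growth cone protein, fell from 595 and 580.5 CPM to 409 and 407 CPM (log2 fold change -0.53, SE 0.031, adjusted p 5.34e-39), and SYT1, the calcium sensor of vesicle release, rose from 225 and 223 CPM to 292 and 282 CPM (log2 fold change 0.36, SE 0.035, adjusted p 5.06e-18). Among 16 growth factor receptor genes 4 rose and 5 fell (25% and 31.25%). The epidermal growth factor receptor EGFR rose from 54.2 and 50.3 CPM to 79.9 and 77.7 CPM (log2 fold change 0.59, SE 0.052, adjusted p 9.90e-22). The PDGF receptor PDGFRB fell from 44.0 and 41.7 CPM to 13.9 and 13.8 CPM (log2 fold change -1.63, SE 0.076, adjusted p 4.10e-53), with 27.4 and 27.2 CPM and 30.4 and 31.0 CPM in knockouts 1 and 3, and ERBB3 fell from 9.97 and 9.26 CPM to 2.83 and 3.31 CPM (log2 fold change -1.64, SE 0.15, adjusted p 9.36e-21). ALK was not called (0.012, adjusted p 0.934).

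The retinoic acid pathway, whose ligand drives neuroblastoma cells to differentiate, held 6 falls and 3 rises among 13 genes. These were 46.2% and 23.1%, against 14.3% and 12.0% of all genes tested. CRABP2, which carries retinoic acid to the nucleus, was at 129 and 136 CPM in WT and 69.9 and 66.0 CPM in knockout 2 (log2 fold change -0.96, SE 0.045, adjusted p 5.09e-53), while knockouts 1 and 3 stood above WT at 174 and 172 CPM and 178 and 176 CPM. The receptor RARG fell from 22.5 and 25.3 CPM to 12.3 and 13.9 CPM (log2 fold change -0.87, SE 0.088, adjusted p 2.80e-17). The receptor RARB fell by 1.25 (SE 0.27, adjusted p 8.19e-05), with 1.54 and 0.579 CPM in the knockout 2 libraries, which differed from each other, against 2.36 and 2.69 CPM in WT, and without TET2KO_2 replicate 2 the call was lost (adjusted p 0.0869). RARA rose by 0.19 (SE 0.055, adjusted p 0.00537).

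Extracellular matrix genes were among the larger falls in TET2 knockout 2, and several of them were lower still in the other knockouts. Of 33 collagen and matrix genes, 25 fell and 3 rose (median -0.59). COL3A1, a fibrillar collagen, was at 158 and 152 CPM in WT and 27.2 and 27.9 CPM in knockout 2 (log2 fold change -2.49, SE 0.054, adjusted p 2.07e-111), and at 15.1 and 14.6 CPM and 12.4 and 13.3 CPM in knockouts 1 and 3. FN1, fibronectin, was at 325 and 306 CPM in WT, 132 and 137 CPM in knockout 2 and 57.7 and 57.6 CPM and 54.3 and 54.7 CPM in knockouts 1 and 3 (knockout 2 against WT log2 fold change -1.23, SE 0.039, adjusted p 3.18e-81). For both genes the knockout 2 libraries lay between WT and the other knockouts. POSTN, periostin, differed from this: it fell from 39.8 and 38.9 CPM to 5.09 and 4.74 CPM (log2 fold change -3.00, SE 0.098, adjusted p 4.97e-78) and was not called against the mean of the other knockouts (log2 difference 0.07, adjusted p 0.739).

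Against the mean of knockouts 1 and 3, 15 of the 33 matrix genes were higher in knockout 2 and 7 lower. ELN, elastin, was one of the 7, at 5.66 and 6.83 CPM in WT, 2.76 and 3.24 CPM in knockout 2, and 6.39 and 7.01 CPM and 11.0 and 9.01 CPM in knockouts 1 and 3 (log2 difference -1.45, adjusted p 6.50e-19). DCN, the small proteoglycan decorin, rose from 21.5 and 21.5 CPM to 47.8 and 47.8 CPM (log2 fold change 1.15, SE 0.068, adjusted p 1.10e-39). Of 16 YAP and TEAD pathway genes 11 fell and 1 rose (median -0.61), with 10 to 11 lower when any 1 library was left out. The YAP target CCN1 was at 29.9 and 34.6 CPM in WT and 16.1 and 15.7 CPM in knockout 2 (log2 fold change -1.02, SE 0.079, adjusted p 2.18e-26), and its log2 difference from the mean of the other knockouts was 0.79 (adjusted p 6.63e-15).

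Of 26 mesenchymal regulators and markers 9 fell and 4 rose (2 without WT replicate 1) against WT, and 15 were higher and 3 lower than the mean of knockouts 1 and 3. In another list, HIF subunits and oxygen sensors, 2 of 10 genes rose and 1 fell. The one that fell was EPAS1, which encodes HIF-2alpha, at 21.9 and 19.9 CPM in WT and 9.35 and 8.94 CPM in knockout 2 (log2 fold change -1.19, SE 0.098, adjusted p 1.95e-24). It was at 5.21 and 6.11 CPM and 4.51 and 4.52 CPM in the other knockouts. In the Notch list 7 of 19 genes fell and 2 rose (36.8% and 10.5%). Among them NOTCH1 fell from 6.62 and 7.42 CPM to 2.51 and 2.50 CPM (log2 fold change -1.49, SE 0.17, adjusted p 1.69e-14). In the TGF-beta and BMP list 11 of 32 genes rose and 9 fell (34.4% and 28.1%, against 12.0% and 14.3% of all genes tested). The inhibitory SMAD6 rose from 12.6 and 11.9 CPM to 27.3 and 25.6 CPM (log2 fold change 1.12, SE 0.087, adjusted p 1.80e-26) and the ligand TGFB1 from 12.8 and 12.0 CPM to 21.2 and 21.3 CPM (log2 fold change 0.78, SE 0.091, adjusted p 1.01e-13). The ligand TGFB2 fell from 7.46 and 6.55 CPM to 1.26 and 1.48 CPM (log2 fold change -2.35, SE 0.20, adjusted p 6.11e-24).

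Markers of other cell types moved beside these genes. Of 12 endothelial marker genes 7 fell and 1 rose, with PECAM1 at 2.62 and 2.94 CPM in WT and 0.144 and 0.217 CPM in knockout 2 and CDH5 at 4.77 and 4.35 CPM and 1.26 and 1.95 CPM. The one that rose was FLT1, a receptor for vascular growth factors, from 10.9 and 9.02 CPM to 23.6 and 24.3 CPM (log2 fold change 1.26, SE 0.093, adjusted p 8.72e-29). The summed level of this list was 50.7 and 50.2 CPM in WT, 45.5 and 46.2 CPM in knockout 2 and 24.5 to 25.7 CPM in the other knockouts. Summed fibroblast markers were 742 and 738 CPM in WT and 586 and 599 CPM in knockout 2, with 5 of 9 lower and 2 higher. Fewer cells of a type and less RNA per cell cannot be told apart in such bulk samples, and the part of these markers in the results above was not tested. The immune cell markers summed to 12.3 and 13.7 CPM in WT and 15.6 and 17.5 CPM in knockout 2, and only 4 of 12 passed the filter. The leukocyte marker PTPRC, the T cell marker CD3E and the fibroblast markers COL1A2, FAP and PDPN were below that filter.

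Zinc-finger genes held many small rises. This group, all genes named ZNF and a number, was chosen after the values had been seen, so its counts are a description. Most encode DNA-binding factors with arrays of C2H2 fingers, many of them joined to a KRAB domain that recruits a repressor complex. Many, but not all, lie in tandem clusters on chromosome 19. Of 466 tested, 148 were called higher and 13 lower, with a median of 0.17, and DESeq2 called 110 higher. Leaving out 1 library lowered the 148 to between 91 (without WT replicate 2) and 105. On chromosome 19, 100 of 226 were higher and 1 lower (median 0.27), against 76 higher and 97 lower of the 796 other genes tested on that chromosome (median -0.0013). This last balance turned to 55 higher and 48 lower without TET2KO_2 replicate 1, and lay between 42 and 61 higher and 48 and 78 lower over the 4 libraries left out in turn. On other chromosomes 48 of 240 were higher and 12 lower (median 0.09), with 28 (without TET2KO_2 replicate 1) to 34 higher when 1 library was left out. With 1 library left out, 59 to 72 of the chromosome 19 genes were higher, the lowest number without WT replicate 2.

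The members were individually modest. ZNF473 (chromosome 19, 50025714 to 50053414, plus strand) was at 27.6 and 26.7 CPM in WT and 38.0 and 39.5 CPM in knockout 2 (log2 fold change 0.51, SE 0.067, adjusted p 3.37e-11), and ZNF551 (chromosome 19, 57681969 to 57717301, plus strand) at 13.0 and 12.8 CPM and 19.9 and 20.2 CPM (log2 fold change 0.63, SE 0.090, adjusted p 9.12e-10). ZNF14 (chromosome 19, 19710472 to 19733112, minus strand) rose from 4.35 and 6.05 CPM to 9.13 and 9.55 CPM (log2 fold change 0.84, SE 0.13, adjusted p 3.64e-08). In each of these genes, all called higher, both knockout 2 libraries exceeded both WT libraries. Such a separation, in either direction, held for 60.7% of all genes tested. The median of ZNF-named genes was smaller at higher abundance, from 0.25 to 0.0014 between the lowest and the highest of 5 equal classes of mean CPM, while other genes had medians between -0.011 and 0.0051 in every class. Runs of 20 neighbouring tested genes were again moved 1 gene at a time, so that their edges were set by the values. Of runs that did not overlap, the 4 with the highest medians all lay on chromosome 19. The highest, from ZNF773 at 57499915 to AC010326.1 ending at 57947706, held 18 ZNF-named genes and 12 genes called higher, with a median of 0.47. Against the mean of knockouts 1 and 3, 147 of the 466 were higher and 18 lower. Reads of closely related members may be lost or shared in the authors' counting.

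**Figure D5:**
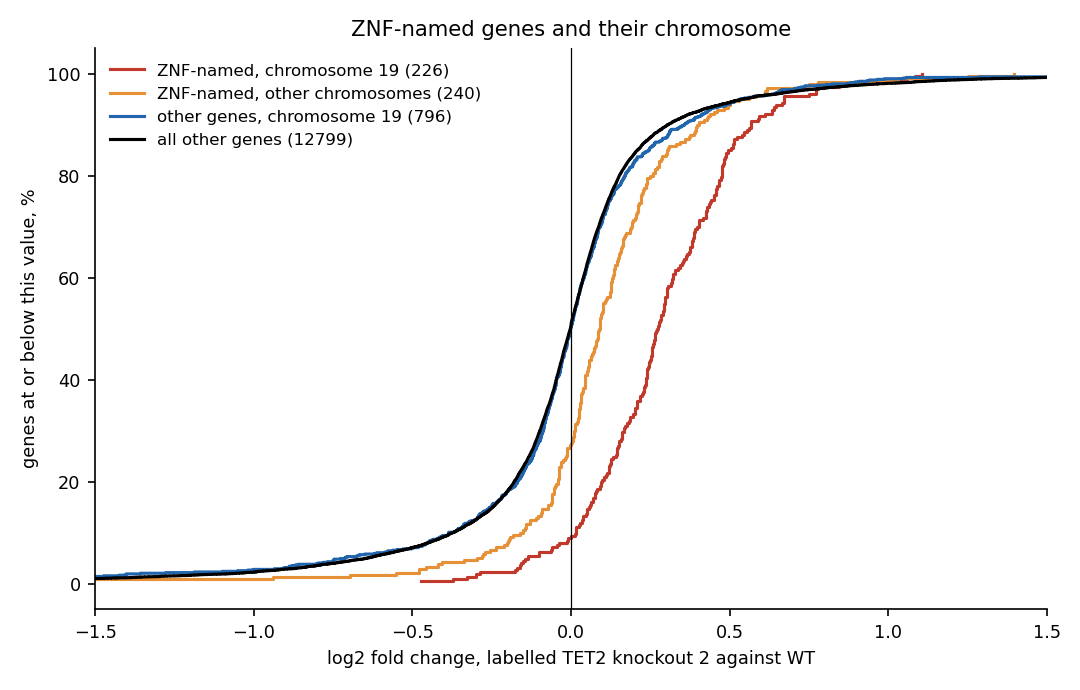
Cumulative share of genes (y axis, %) by log2 fold change of labelled TET2 knockout 2 against WT (x axis) for ZNF-named genes on chromosome 19 (226) and elsewhere (240), other genes of chromosome 19 (796) and all other genes. The ZNF-named genes of chromosome 19 lie to the right of the rest, around a median of 0.27, while other genes of that chromosome follow the remaining genes.

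All 13 mitochondrially encoded genes fell, with log2 fold changes from -0.88 to -0.43 and a median of -0.58. MT-CO1, the core subunit of cytochrome c oxidase, was at 5465 and 5504 CPM in WT and 3404 and 3413 CPM in knockout 2 (log2 fold change -0.69, SE 0.025, adjusted p 9.30e-69). Mitochondrial counts made up 2.60% and 2.65% of the WT libraries, 1.71% in both knockout 2 libraries, 2.03% and 2.05% in knockout 1 and 3.11% and 3.17% in knockout 3. The groups of batch 2 thus did not overlap in this share, and what sets it was not tested. Of 43 nuclear genes of oxidative phosphorylation 7 fell (16.3%, against 14.3% of all genes tested) and 1 rose, with a median of -0.04. The falls numbered 6 without WT replicate 1, 1 without WT replicate 2 and 2 without either knockout 2 library, and with any of these left out 0 rose.

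HSP90AA1, a cytosolic chaperone, was at 2860.2 and 2917 CPM in WT and 4156 and 4161 CPM in knockout 2 (log2 fold change 0.53, SE 0.026, adjusted p 1.73e-48), and 5 of 14 heat shock genes rose and 0 fell, with 8 of the 14 values under 0 and a median of -0.0055. HSPA5, the chief chaperone of the endoplasmic reticulum, fell from 781 and 813 CPM to 618 and 618 CPM (log2 fold change -0.37, SE 0.030, adjusted p 2.87e-24), and 7 of 18 endoplasmic reticulum folding genes fell and 1 rose, with 5 to 6 lower when any 1 library was left out. Glycolysis genes held 10 falls (7 to 10 with 1 library left out) and 2 rises among 23, the rises being LDHA (0.20, adjusted p 0.0146) and SLC2A1 (0.25, adjusted p 2.06e-05). The rise of LDHA was lost without WT replicate 2 (adjusted p 0.172), TET2KO_2 replicate 1 (0.0754) or TET2KO_2 replicate 2 (0.0822). HIF1A was not called (-0.042, adjusted p 0.318). Among 20 other HIF targets 7 fell and 3 rose (1 without WT replicate 1), with STC2 going from 22.9 and 20.6 CPM to 11.1 and 12.4 CPM (log2 fold change -0.89, SE 0.091, adjusted p 3.67e-17) and KDM3A from 54.9 and 52.9 CPM to 73.2 and 69.4 CPM (log2 fold change 0.40, SE 0.053, adjusted p 2.80e-11).

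Cell cycle genes were slightly higher. Of 25 mitosis genes 16 rose and 1 fell (median 0.13), with 10 to 12 higher when any 1 library was left out, and of 30 DNA replication genes 10 rose and 1 fell (median 0.06), with 6 higher whichever library was left out. BUB1, a spindle checkpoint kinase, rose from 130.0 and 128 CPM to 149 and 147 CPM (log2 fold change 0.20, SE 0.041, adjusted p 2.54e-05). CCND1, cyclin D1, rose from 578 and 559 CPM to 733 and 747 CPM (log2 fold change 0.38, SE 0.031, adjusted p 3.43e-25). The cell cycle inhibitor CDKN1A was not called (-0.13, adjusted p 0.113). Replication genes also rose in the other knockouts, 16 of 30 in knockout 1 (median 0.12) and 20 in knockout 3 (median 0.14), with 0 lower in either. Of the mitosis genes 5 rose and 3 fell in knockout 1, and 16 rose and 0 fell in knockout 3. Against the mean of knockouts 1 and 3, 11 replication genes were lower in knockout 2 and 1 was higher. In that test 6 mitosis genes were higher and 2 lower.

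The machinery that TET2 works beside changed little, while the higher TET2 mRNA of knockout 2 is given above. Of 17 DNA methylation and hydroxymethylation genes 2 rose and 3 fell (11.8% and 17.6%, against 12.0% and 14.3% of all genes tested). TET3 rose from 138 and 129.6 CPM to 156 and 156 CPM (log2 fold change 0.22, SE 0.041, adjusted p 3.06e-06) and TET1 was not called (-0.011, adjusted p 0.925). IDH1, whose product 2-oxoglutarate is the TET cosubstrate, fell from 120.3 and 114 CPM to 90.7 and 92.2 CPM (log2 fold change -0.36, SE 0.044, adjusted p 2.49e-12), and DNMT3A, a de novo methyltransferase, from 229 and 219 CPM to 197 and 208 CPM (log2 fold change -0.14, SE 0.037, adjusted p 9.45e-04). Of 29 Polycomb genes 9 rose and 1 fell (31.0% and 3.4%, against 12.0% and 14.3% of all genes tested). CBX2, a chromodomain reader in PRC1, rose from 152 and 149.6 CPM to 176 and 184 CPM (log2 fold change 0.26, SE 0.039, adjusted p 8.84e-09), and EZH2, the PRC2 methyltransferase, from 98.7 and 103 CPM to 114 and 109 CPM (log2 fold change 0.15, SE 0.044, adjusted p 0.00644), while its partners SUZ12 (-0.068, adjusted p 0.24) and EED (-0.0067, adjusted p 0.956) were not called. With WT replicate 1 or TET2KO_2 replicate 1 left out, 6 Polycomb genes were higher and EZH2 was not called (adjusted p 0.138 and 0.159), and without TET2KO_2 replicate 1 DNMT3A was not called (0.109). Developmental transcription factors, which are common Polycomb targets, held 7 rises and 5 falls among 40 that passed the filter of 90 in the table. These shares, 17.5% and 12.5%, stand beside 12.0% and 14.3% of all genes tested, and the counts depended on single libraries. HOX genes held 0 rises and 2 falls (13.3%) among 15 of 39, namely HOXD8 (-0.43, adjusted p 1.39e-04) and HOXD9 (-0.44, adjusted p 1.74e-04).

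The largest single rises under the rule for named genes, beyond the metallothioneins, were those of DDIT4L, IL33, CILP, SYT17 and SAMD11. DDIT4L, a negative regulator of mTOR signalling, was at 0.873 and 0.571 CPM in WT and 4.02 and 3.18 CPM in knockout 2 (log2 fold change 2.32, SE 0.27, adjusted p 3.48e-14). IL33, a nuclear cytokine, was at 9.51 and 8.04 CPM in WT, 27.8 and 26.2 CPM in knockout 2, and 9.51 and 7.13 CPM and 4.51 and 4.52 CPM in the other knockouts (knockout 2 against WT log2 fold change 1.62, SE 0.094, adjusted p 7.36e-40). PLXNA2, a semaphorin receptor and the most abundant of the 15 largest rises, went from 89.9 and 84.0 CPM to 205 and 206 CPM (log2 fold change 1.24, SE 0.043, adjusted p 2.17e-67). The rise of SAMD11 (1.54) is uncertain, since its exons meet those of NOC2L, which runs the other way.

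Among the largest falls, MEST, an imprinted gene, went from 30.0 and 31.1 CPM to 3.01 and 2.60 CPM (log2 fold change -3.44, SE 0.12, adjusted p 9.77e-75), and PTX3, a secreted pattern recognition protein, from 28.8 and 28.2 CPM to 2.73 and 2.50 CPM (log2 fold change -3.45, SE 0.12, adjusted p 5.41e-73). Neither was called against the mean of knockouts 1 and 3, with log2 differences of -0.17 (adjusted p 0.475) and -0.065 (adjusted p 0.821). MEST overlaps COPG2 and PTX3 overlaps VEPH1 on the opposite strand. Falls of FOS, FOSB and IL17RD, in contrast, were called in that direct test as well. TDO2, a tryptophan-degrading enzyme, was higher than in the other groups: it was at 5.35 and 5.71 CPM in WT, 7.93 and 8.43 CPM in knockout 2, and 1.86 and 1.69 CPM and 1.23 and 0.780 CPM in knockouts 1 and 3.

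The direct comparison with knockouts 1 and 3 also moved with gene properties, which bears on every count taken from it. With genes in 5 equal classes, its median log2 difference was 0.17 in the lowest class of mean CPM and -0.020 in the highest, and -0.028 in the class of shortest exon length and 0.054 in that of the longest. Against WT the medians of all these classes lay between -0.011 and 0.013.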

How the data were processed

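RNA had been extracted with TRIzol and made into strand-specific libraries from oligo-dT selected RNA, per the labels' protocols. Trimmomatic 0.36, STAR 2.6.1d and Subread 1.5.3 are named in the submitters' processing notes. The deposited files hold raw counts per gene name, made by the authors with featureCounts 2.0.5 over GENCODE protein-coding exons without a strand option, per the file headers; a read pair mostly added 2 counts, so counts overstate independent fragments and counting intervals cover counting error only. The 8 libraries of batch 2 (4 groups of 2) were fitted together with edgeR 4.0.16 in R 4.3.3 (filterByExpr, TMM, robust quasi-likelihood test, Benjamini-Hochberg adjustment over all genes tested), with 1 contrast of knockout 2 against WT and 1 against the mean of knockouts 1 and 3. DESeq2 1.42.0, other scalings and filters, counts divided by 2, a replicate block, a fit of 4 libraries and leaving out each library were alternatives. The scripts were tested on simulated data. Genes were named if among the 15 largest rises or falls with a mean of at least 2 CPM, the 5 largest differences from the other knockouts in each direction, the 3 smallest adjusted p in each direction of a list, or a short fixed set; other list members are named where a count turns on them, and the ZNF group, IL17RD's place beside the ERK genes and single members outside the rule were chosen after their values were seen. The members and lists were chosen with earlier results of these data known. The libraries of the other batch were not used here, and some genes are not reported here.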

Additional observations from a re-analysis of the deposited data

Results flagged for a closer look

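The effect of the labelled knockout differed between knockout 2 and the other knockouts for 99 of 119 named genes tested, 56 higher and 43 lower. The test was edgeR's, of knockout 2 against the mean of knockouts 1 and 3, with Benjamini-Hochberg adjustment over all genes tested. Many of these genes were named for large or clear changes in these same libraries, some of them in this contrast. The 35.2% called over all genes tested is therefore no fair background for the 99. Values are log2 differences, knockout 2 minus that mean. The genes that stood furthest higher were MT1G 8.38, DDIT4L 3.36, MT1F 3.34, TDO2 2.60, RAD51AP2 2.55, MT2A 2.15, IL33 2.14, FLT1 2.13, SAMD11 1.49, CILP 1.38, FN1 1.26, PLXNA2 1.19, CDH5 1.14, MT1X 1.10 and TGFB1 1.06. MT1G and MT1F passed the filter only through the knockout 2 libraries, so their direction was fixed by it. RAD51AP2, named for its place near MYCN, was not called against WT (log2 fold change 0.29, SE 0.77, adjusted p 0.832). A next group, higher by less, held COL3A1 1.00, EGR3 0.91, ZNF14 0.89, NPY 0.89, TBX2 0.87, EPAS1 0.85, SMAD6 0.82, CCN1 0.79, SYT17 0.77, HMOX1 0.75, SLC7A11 0.74, HAND1 0.64, EGFR 0.59, MXD1 0.58 and HSP90AA1 0.55. Smaller higher values were those of ZNF551 0.50, KDM3A 0.47, SYT1 0.43, SLC30A1 0.40, GCLM 0.39, TET3 0.36, ZNF473 0.32, RRN3 0.29 and TET2 0.25. The smallest higher differences were DCN 0.24, GATA3 0.23, ALK 0.23, DUSP4 0.21, RARA 0.21, FTH1 0.18, CCND1 0.18, LDHA 0.17, TET1 0.15, SLC2A1 0.14, SMC6 0.14, EZH2 0.13, CBX2 0.13, BUB1 0.12, HIF1A 0.11, ODC1 0.081 and SCG2 0.067.

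The genes that stood furthest lower were FOS -2.58, RARB -1.86, FOSB -1.84, IL17RD -1.69, ELN -1.45, CRABP2 -1.36 and PDGFRB -1.06. A next group, lower by less, held RARG -0.98, RPS10 -0.98, ERBB3 -0.94, DUSP6 -0.88, HMGCS1 -0.86, DHCR7 -0.85, STC2 -0.84, FDFT1 -0.83, EGR1 -0.73, INSIG1 -0.73, MYCN -0.71, MT-CO1 -0.70, TFAP2B -0.64, HOXD9 -0.58, SCD -0.57, ELOVL6 -0.56 and SREBF1 -0.53. Smaller lower values were those of DPYSL3 -0.48, IDH1 -0.45, HOXD8 -0.43, CYB561 -0.40, NOP16 -0.39, SPRY4 -0.39, MXI1 -0.37, FASN -0.35, TH -0.32, HSPA5 -0.31 and SLC39A10 -0.30. The smallest lower differences were CAD -0.22, SREBF2 -0.22, HAND2 -0.13, DNMT3A -0.13, PHOX2A -0.11, NCL -0.11, ELOVL5 -0.11 and CHGB -0.093.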

How the results depend on the processing

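The count of genes that differed from WT, 3698, was 3138 with DESeq2, 3703 with RLE and 3680 with upper-quartile scaling, 3538 without a filter, 3674 with a minimum count of 50, 3686 with counts divided by 2 and 3844 in a fit of the 4 libraries. Leaving out 1 library gave 2406 to 2828 genes, the lowest without TET2KO_2 replicate 1. The count of changes of at least 2-fold, 311, was 203 with a minimum count of 50, which tests fewer genes, and 250 to 288 with 1 library left out. The count against the mean of knockouts 1 and 3, 4950, was 3210 without TET2KO_2 replicate 1 and 3645 without TET2KO_2 replicate 2. Replicate numbers did not pair the libraries (correlation of replicate differences between WT and knockout 2 0.0173, range over group pairs -0.0567 to 0.0283), and a fit with the replicate number as a block gave 3502, 301 and 4772 genes for the 3 counts. The earlier quasi-likelihood method (3614) and leaving out the mitochondrially encoded genes (3685) were added after the data had been seen. None of the named genes reversed against WT in these alternatives, but the balance against the mean of knockouts 1 and 3, 2502 higher and 2448 lower, turned to 2085 and 2304 with DESeq2, 2442 and 2508 with RLE and 2379 and 2551 with counts divided by 2. With 2 libraries a group, small changes are the least certain.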
